A study of Arabidopsis thaliana with 16 samples.

Results

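The xyloglucan endotransglucosylase/hydrolases (XTH) are a family of plant cell wall enzymes, and 7 of their genes were followed here in Arabidopsis cells whose cellulose synthesis had been inhibited. The members are XTH16, XTH18, XTH19, XTH21, XTH26, XTH32 and XTH33, taken by symbol from the annotation of the Affymetrix ATH1 array, each through the probe set that the annotation gives to that gene alone. They are 7 of the 13333 genes that have such a probe set, and each has 1 probe set only. Of the 33 XTH loci of Arabidopsis written into the family list, 10 could be read in this way, and the other 3 (XTH20, XTH29 and EXGT-A3, which is also called XTH27) are used for comparison. The remaining 23 loci were not analysed here.

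The cells were a suspension culture of ecotype Landsberg erecta, kept in the dark with shaking in Murashige and Skoog medium that contained the synthetic auxin 2,4-D, and all groups share these conditions. On day 3 after sub-culture, cultures received either TA at 2 µM, IXB at 100 nM, or 20 µL of the solvent methanol alone, and they were frozen after 6 h. The labels give the 2 compounds as abbreviations and describe both as inhibitors of cellulose synthesis; TA is taken here to be thaxtomin A, a toxin of potato scab Streptomyces, and IXB to be isoxaben, a herbicide. There were 4 replicates in each of the 3 groups, each a pool of 2 flasks of 100 mL, and each was read on 1 array. Whether the flasks descend from different parent cultures is not stated in the labels, and every p-value below therefore measures only the spread between these samples, which may be technical.

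Xyloglucan is a branched glucan that coats and tethers cellulose microfibrils in the primary wall. XTH enzymes cut a xyloglucan chain and either join the new end to another chain (endotransglucosylase activity) or release it to water (hydrolase activity), and the family is known for its part in wall loosening, wall assembly and repair in growing tissues. XTH18 and XTH19 belong with XTH17 and XTH20 to a group of closely related genes known from Arabidopsis roots. XTH26 is known from root hairs, XTH21 from root growth, and XTH32 belongs to the group predicted to act mainly as hydrolases.

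Values are log2 signals made by the authors with RMA, a method that removes background, equalises the arrays' distributions and merges each probe set's probes into 1 value. The 4 methanol arrays occur once in a TA set and once in an IXB set, with column medians of 4.76 to 4.85 in the first and 5.20 to 5.30 in the second. Each compound was therefore compared with methanol inside its own set, and a difference was called when its limma adjusted p was under 0.05 over all 22746 probe sets tested. In bulk cultures, more cells of a type and more RNA per cell cannot be told apart. Of the 18 markers listed to check the cell type, 6 could be read. The dividing-cell genes AUR1, AUR2 and TOPII and the photosynthetic gene RCA were above a log2 value of 5 with methanol in both sets. The root hair genes EXPA7 and EXPA18 were below 4 in both.

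In methanol-treated cells only XTH18 and XTH19 gave a bright signal. XTH18 (locus AT4G30280, probe set 253628_at) had a mean log2 value of 6.57 ± 0.14 in the TA set, and its mean in the IXB set was 6.88 ± 0.15 (SD, n = 4 in each set). XTH19 (AT4G30290, 253608_at) had 8.84 ± 0.27 and 9.12 ± 0.26 (SD, n = 4). These 2 genes lie next to each other in the TAIR10.1 gene table, with XTH24 as the other neighbour of XTH18. The other 5 members were dim, with mean values under 5 in every group of both sets, where RMA compresses small changes. Their methanol means in the TA set ran from 2.38 for XTH21 to 3.12 for XTH33. Among the 3 further XTH genes, XTH20 (8.42 ± 0.07) and EXGT-A3 (10.50 ± 0.11) were bright in the TA set and XTH29 (2.51 ± 0.13) was dim (SD, n = 4). The same methanol arrays gave XTH20 a mean of 9.17 in the IXB set. That is 0.75 log2 above its mean in the TA set, where the same offset was 0.31 for XTH18 and 0.28 for XTH19.

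**Figure D1:**
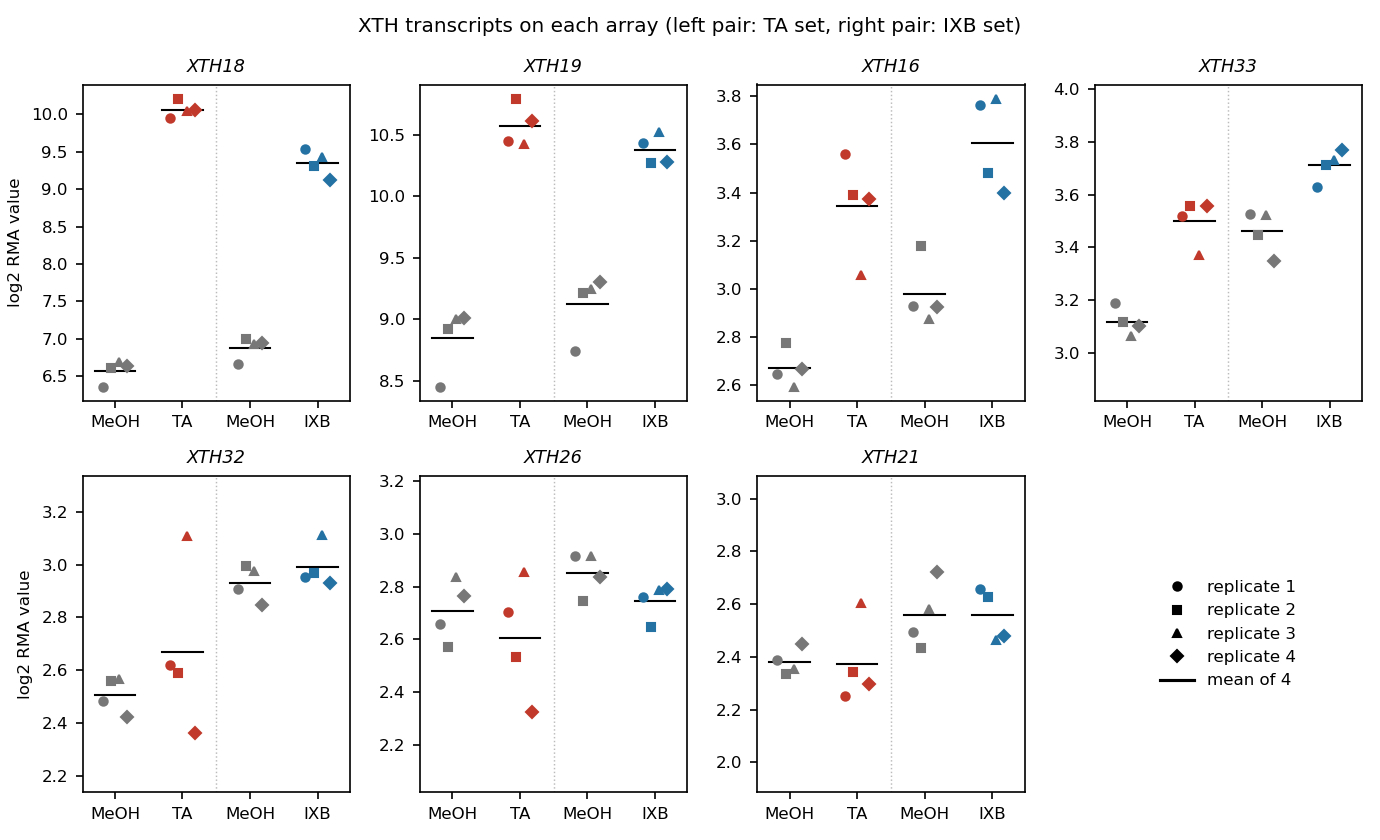
Log2 RMA value of the 7 XTH members on each array, 1 panel per gene with its own vertical axis. The left pair of columns is methanol and TA in the TA set, the right pair is methanol and IXB in the IXB set, marker shapes give the replicate number and bars the mean of 4. XTH18 and XTH19 stand well apart from methanol with both compounds, XTH16 and XTH33 by less, and XTH32, XTH26 and XTH21 overlap with methanol.

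The first comparison asked which XTH transcripts changed after 6 h with TA. Of the 7 members, 4 rose (XTH18, XTH19, XTH16 and XTH33), 0 fell and 3 did not pass the test. Over all probe sets tested, 5.41% were called higher and 4.70% lower in this comparison. The median log2 difference of the members was 0.38, beside -0.01 over all probe sets. None of the 3 further XTH genes passed in this fit, and the median over all 10 was 0.19.

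XTH18 rose most. Its methanol arrays read 6.36, 6.61, 6.68 and 6.63 and its TA arrays 9.95, 10.21, 10.04 and 10.06, in the order of the replicate numbers. All 4 TA arrays were over 3 log2 units above every methanol array. The difference was 3.49 log2, or 11.3-fold (SE 0.09, 95% interval 3.30 to 3.69, limma adjusted p = 2.22e-10), which placed it 2nd from the top among the 22746 probe sets. Its neighbour XTH19 rose by 1.72 log2, or 3.30-fold (SE 0.13, 95% interval 1.45 to 2.00, limma adjusted p = 1.47e-06). The XTH19 arrays read 8.45, 8.92, 9.00 and 9.01 with methanol and 10.45, 10.79, 10.43 and 10.61 with TA. Methanol replicate 1 was the lowest methanol array for both genes, and the groups did not overlap for either.

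XTH16 (AT3G23730, 257203_at) and XTH33 (AT1G10550, 263207_at) rose from near the bottom of the signal range. XTH16 read 2.65, 2.78, 2.59 and 2.67 with methanol and 3.56, 3.39, 3.06 and 3.37 with TA, a difference of 0.67 log2 (SE 0.10, limma adjusted p = 7.82e-04). XTH33 read 3.19, 3.12, 3.07 and 3.10 with methanol and 3.52, 3.56, 3.37 and 3.56 with TA, a difference of 0.38 log2 (SE 0.07, limma adjusted p = 0.00488). TA replicate 3 was the lowest TA array for both genes and still lay above every methanol array. Thus in 4 of the 7 members all TA arrays were above all methanol arrays, a separation that 7.45% of all probe sets showed.

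The other 3 members were not distinguishable from methanol with TA. XTH32 (AT2G36870, 263841_at) read 2.62, 2.59, 3.11 and 2.36 with TA against 2.42 to 2.57 with methanol, so TA replicate 3 alone was far above the methanol range. Its difference was 0.16 log2 with a 95% interval of -0.12 to 0.44. XTH26 (AT4G28850, 253763_at) differed by -0.10 (95% interval -0.34 to 0.13) and XTH21 (AT2G18800, 266066_at) by -0.01 (95% interval -0.19 to 0.18). All 3 were dim in every group, and a change of a low transcript could be hidden at that level of signal.

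The same question for IXB gave 3 members that rose (XTH18, XTH19 and XTH16), 0 that fell and 4 that did not pass. In this comparison 2.20% of all probe sets were called higher and 0.809% lower. The median log2 difference of the members was 0.25, beside -0.01 over all probe sets. Both compounds were set against the same 4 methanol arrays, so the 2 comparisons are not independent of each other.

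With IXB XTH18 was again the member with the largest rise. It read 6.66, 7.00, 6.93 and 6.94 with methanol and 9.54, 9.31, 9.43 and 9.12 with IXB. The difference was 2.47 log2, or 5.54-fold (SE 0.10, 95% interval 2.25 to 2.69, limma adjusted p = 1.86e-07), and it again ranked 2nd of all probe sets. XTH19 read 8.74, 9.21, 9.24 and 9.30 with methanol and 10.43, 10.27, 10.52 and 10.28 with IXB, a rise of 1.25 log2, or 2.38-fold (SE 0.12, limma adjusted p = 9.19e-05). No IXB array of either gene came near the methanol range.

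XTH16 read 2.93, 3.18, 2.88 and 2.93 with methanol and 3.76, 3.48, 3.79 and 3.40 with IXB. It rose by 0.63 log2 (SE 0.10, limma adjusted p = 0.00632), and the call was lost with an ordinary linear model for each probe set (adjusted p = 0.0885). XTH33 was 0.25 log2 above methanol with IXB (SE 0.07, 95% interval 0.10 to 0.40) and missed the threshold (limma adjusted p = 0.0884). Its IXB arrays, at 3.63, 3.71, 3.73 and 3.77, were nevertheless all above its methanol arrays, at 3.35 to 3.53. Counting XTH33, 4 of the 7 members were separated in this way, as were 5.35% of all probe sets. XTH32 (0.06, 95% interval -0.10 to 0.21), XTH26 (-0.11, -0.26 to 0.05) and XTH21 (0.00, -0.18 to 0.18) did not pass with IXB either.

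**Figure D2:**
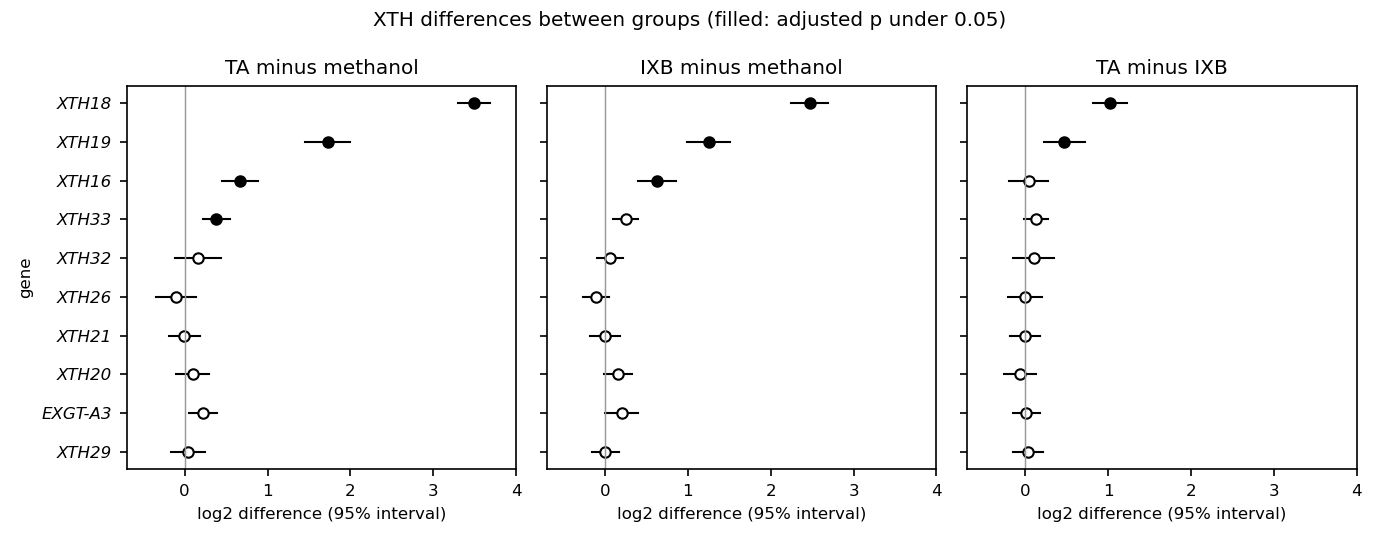
Log2 difference of the 10 measured XTH genes (7 members, then XTH20, EXGT-A3 and XTH29) for TA minus methanol, IXB minus methanol and TA minus IXB, with 95% intervals from limma. Filled points have an adjusted p under 0.05; XTH18 and XTH19 are filled in all 3 panels, XTH16 in the first 2 and XTH33 in the first.

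The third comparison asked whether the rise differed between TA and IXB at the doses used, which were 2 µM and 100 nM. For this, a set's methanol mean was subtracted from each of its arrays, and each methanol array was counted once, as the mean of its 2 versions. XTH18 and XTH19 were higher with TA than with IXB, 0 members were lower and 5 did not pass, while 2.72% of all probe sets were called higher with TA and 2.05% lower. The median log2 difference was 0.10 over the members and -0.00 over all probe sets.

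For XTH18 the TA arrays stood 3.38, 3.63, 3.47 and 3.49 log2 above the methanol mean and the IXB arrays 2.66, 2.43, 2.54 and 2.24. The difference was 1.02 log2, or 2.03-fold (SE 0.10, 95% interval 0.82 to 1.23, limma adjusted p = 1.47e-05). For XTH19 the TA arrays stood at 1.60, 1.95, 1.58 and 1.76 and the IXB arrays at 1.31, 1.14, 1.40 and 1.16, a difference of 0.47 log2 (SE 0.12, 95% interval 0.22 to 0.72, limma adjusted p = 0.0307). The groups did not overlap for either gene, a separation in favour of TA that 6.08% of all probe sets showed. The call of XTH19 was close to the threshold. Leaving out TA replicate 2 or 4 took it past the threshold (adjusted p = 0.0887 and 0.0593), and so did leaving out 1 of IXB replicates 1, 2 and 4 (0.0546, 0.0928 and 0.0904). The difference itself stayed between 0.40 and 0.52 log2 when each array was left out. The call was also lost with an intensity trend in the prior (0.0817) and with an ordinary linear model (0.107).

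The 2 sets were normalized apart, so their scales were compared on the methanol arrays they share. For the 6207 probe sets with a methanol mean between 6.5 and 10 in the TA set, the slope of the IXB-set values on the TA-set values was 0.978. With the TA columns first mapped to the scale of the IXB set, the difference between the compounds was 0.94 log2 for XTH18 and 0.44 for XTH19, and both calls remained (adjusted p = 4.30e-05 and 0.0449). For probe sets under 4, where the 5 dim members lie, the slope was 1.144. XTH16 differed by 0.04 log2 between TA and IXB (95% interval -0.19 to 0.28) and XTH33 by 0.13 (-0.01 to 0.28), and after the mapping these values were 0.14 and 0.20, neither of them called.

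XTH18 and XTH19 also moved by unequal amounts on the same array. The log2 ratio of XTH18 to XTH19, set to 0 at the methanol mean, was 1.77 ± 0.09 with TA, 1.22 ± 0.12 with IXB and 0.00 ± 0.12 with methanol (SD, n = 4). Its ranges were 1.69 to 1.89 with TA, 1.09 to 1.35 with IXB and -0.11 to 0.17 with methanol, with no overlap between any of the 3 groups. XTH20, of the same group of related genes, stayed behind both. It read 8.47, 8.49, 8.36 and 8.35 with methanol and 8.32, 8.74, 8.44 and 8.56 with TA, a difference of 0.10 log2 (95% interval -0.10 to 0.30, limma adjusted p = 0.626). With IXB its difference was 0.16 (95% interval -0.01 to 0.33, limma adjusted p = 0.317). The ratio of XTH18 to XTH20 rose by 3.40 ± 0.08 log2 with TA and by 2.31 ± 0.09 with IXB (SD, n = 4). The names of the 7 members' probe sets carry none of the suffixes that mark probes shared with related transcripts, and cross-binding itself was not tested.

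EXGT-A3, known from the vascular tissue of leaves, was 0.22 log2 above methanol with TA (95% interval 0.05 to 0.39, limma adjusted p = 0.106; 0.0434, a call, with an intensity trend in the prior) and 0.20 with IXB (0.01 to 0.40, limma adjusted p = 0.276). Its 4 TA arrays, at 10.66 to 10.80, were all above its methanol arrays, at 10.39 to 10.60. XTH29 was at 0.04 with TA and 0.01 with IXB, and its groups overlapped in both sets.

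Low-oxygen response genes, which include those of fermentation, were read beside these results. They were listed because an earlier analysis of these data had seen them move with TA. Their counts with TA, against methanol or IXB, are therefore a description with no test. Of the 25 listed, 12 were measured. Of the fermentation genes only PDC2 was among them. It did not pass with TA (-0.05 log2, limma adjusted p = 0.803) or with IXB (0.02 log2, limma adjusted p = 0.939). With TA 9 of the 12 rose, where 5.41% of all probe sets were called higher, and 4 were higher with TA than with IXB, where that share was 2.72%. With IXB 0 of the 12 passed in limma (1 had an unadjusted p under 0.05), where the share was 2.20%; an ordinary linear model also gave 0 and the replicate block gave 1. The mean of the 12 lay between 0.87 and 1.33 log2 above the methanol mean on the TA arrays, between -0.73 and 0.79 on the IXB arrays and between -0.50 and 0.33 on the methanol arrays. On IXB replicate 1 this mean was at -0.73, below every methanol array, while XTH18 there stood 2.66 log2 above the methanol mean, the highest of the 4 IXB arrays. The other 3 IXB arrays had low-oxygen means of 0.33, 0.79 and 0.76, where the highest methanol array was at 0.33. XTH19 and XTH16 were highest on IXB replicate 3, at 1.40 and 0.81 log2 above the methanol mean. That array had the highest low-oxygen mean of the IXB arrays. On IXB replicate 1 these 2 genes stood at 1.31 and 0.79. A link between these genes and the low-oxygen mean was not tested. Leaving out IXB replicate 1 took the mean difference for IXB from 0.29 to 0.63 log2 and the low-oxygen genes called to 2, and the 3 XTH calls for IXB stayed. Without methanol replicate 2 or IXB replicate 3 or 4 that mean difference was 0.12, 0.12 and 0.13, with 0 of the 12 called. For TA against IXB the count of 4 ranged from 2 to 6 when each array was left out, and it was 7 with the replicate block.

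When the mean of these 12 genes was added to the fit as a covariate, XTH18 (3.59 log2, adjusted p = 3.24e-05) and XTH19 (1.85, adjusted p = 0.0195) kept their calls for TA. XTH16 (0.82, adjusted p = 0.319) and XTH33 (0.47, adjusted p = 0.606) lost them, with larger differences and standard errors of 0.25 and 0.19. The standard error of XTH18 grew as well, from 0.09 to 0.23. The covariate itself did not overlap between TA (0.87 to 1.33) and methanol (-0.50 to 0.33). For TA this fit therefore cannot tell the compound from the low-oxygen mean, whichever calls stayed. For IXB the 3 calls stayed, with XTH18 at 2.51, XTH19 at 1.25 and XTH16 at 0.68. For TA against IXB the call of XTH18 stayed (1.16) and that of XTH19 was lost (0.51, adjusted p = 0.120). The covariate did not overlap between TA (0.87 to 1.33) and IXB (-0.73 to 0.79) either. In that comparison too, the fit cannot tell the compounds from the low-oxygen mean, whichever call stayed. Of the 3 dividing-cell genes that could be read, AUR2 fell by 0.54 log2 and TOPII by 0.44 with TA, where 4.70% of all probe sets were called lower. AUR1 did not pass with TA (-0.16 log2, limma adjusted p = 0.33). With IXB 0 of the 3 passed, where 0.809% of all probe sets were called lower. The part of these other genes in the XTH results was not tested further.

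**Figure D3:**
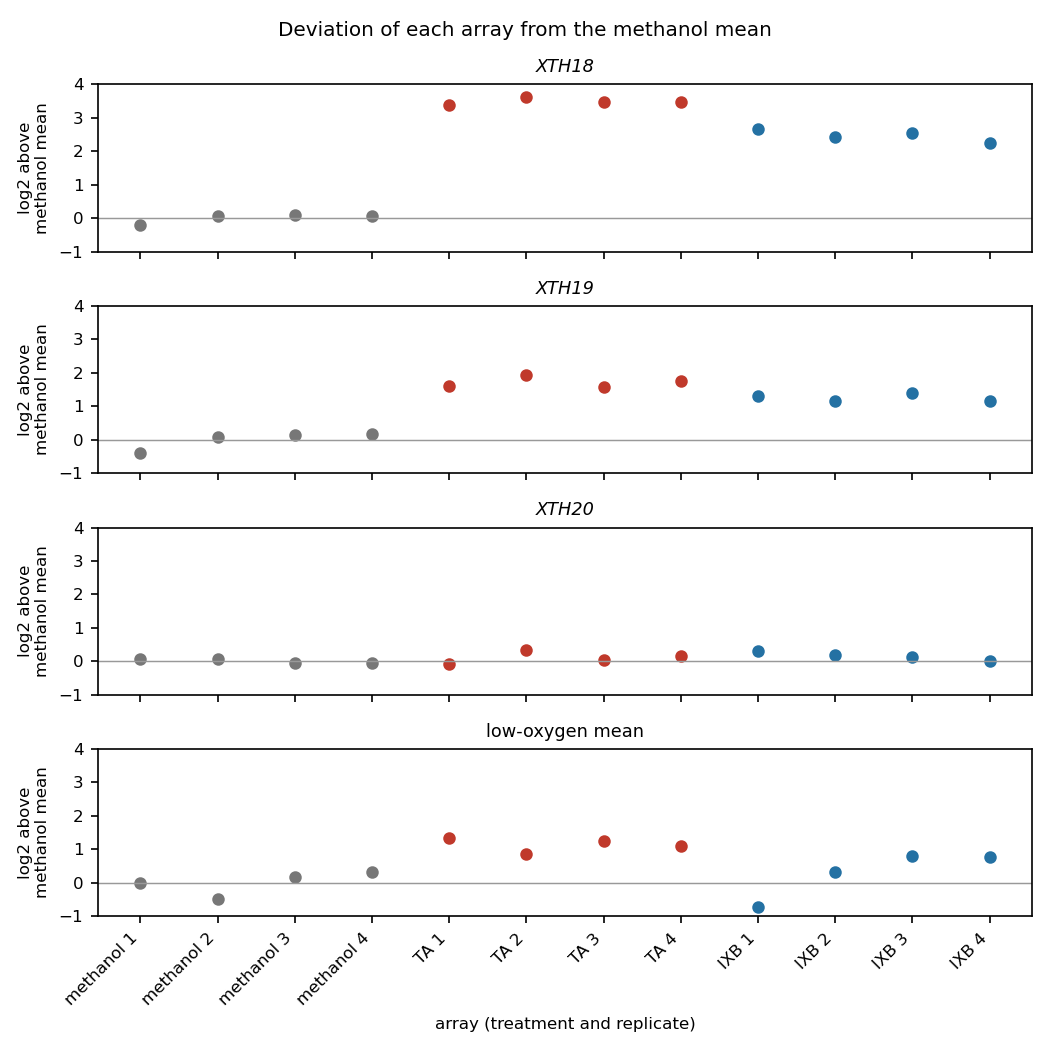
Distance of each of the 12 arrays from the methanol mean (log2) for XTH18, XTH19, XTH20 and the mean of 12 low-oxygen genes, with the array's treatment and replicate number on the horizontal axis. The XTH18 points of TA lie between 3.38 and 3.63 and those of IXB between 2.24 and 2.66, XTH20 stays between -0.10 and 0.32, and the low-oxygen mean of IXB replicate 1 is at -0.73.

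Genes that make or trim xyloglucan were read as the pathway around the XTH enzymes. Of the 18 on the list, 5 were measured, and all 5 belong to the CSLC family, the Golgi glucan synthases that build the xyloglucan backbone. With TA 2 rose, 1 fell and 2 did not pass, and with IXB 2 rose, 0 fell and 3 did not pass. The shares of all probe sets called higher and lower were 5.41% and 4.70% with TA and 2.20% and 0.809% with IXB. Their median differences were -0.12 and -0.01 log2, so the 5 did not shift together. None of the 5 passed for TA against IXB (0 with limma adjusted p under 0.05, and also 0 with an unadjusted p under 0.05).

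CSLC04 rose by 0.81 log2 with TA (SE 0.09, limma adjusted p = 7.38e-05) and by 0.65 with IXB (SE 0.13, limma adjusted p = 0.0183). Its arrays read 6.04 to 6.43 with methanol and 6.99 to 7.15 with TA, and 5.92 to 6.62 with methanol and 6.85 to 7.06 with IXB. CSLC12 rose by 0.48 with TA (SE 0.11, limma adjusted p = 0.0162) and by 0.43 with IXB (SE 0.09, limma adjusted p = 0.0303). ATCSLC08 fell by 0.34 with TA (SE 0.10, limma adjusted p = 0.0442) and was at -0.13 with IXB (limma adjusted p = 0.640). Its means in the TA set, 4.4 with methanol and 4.1 with TA, were under the value of 5 used above for dim members. In the IXB set its methanol mean was 5.3. CSLC5 and CSLC6, named only to complete the list, were at -0.12 and -0.24 with TA and at -0.01 and -0.21 with IXB. The 4 IXB arrays of CSLC6, at 6.29 to 6.37, were all below its methanol arrays, at 6.43 to 6.65. It was not called there (limma adjusted p = 0.16), and with TA its groups overlapped. The share of all probe sets with every IXB array below every methanol array was not counted.

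Apart from that of CSLC04 with TA, the CSLC calls were near the threshold and were lost in some fits with 1 array fewer, with values that kept their direction. When each array was left out, the log2 difference ran from 0.52 to 0.76 for CSLC04 with IXB, from 0.37 to 0.56 for CSLC12 with TA, from 0.35 to 0.48 for CSLC12 with IXB and from -0.41 to -0.28 for ATCSLC08 with TA. CSLC04 lost its IXB call when methanol replicate 4 (adjusted p = 0.0561), IXB replicate 1 (0.0577) or IXB replicate 2 (0.0628) was left out. CSLC12 lost its TA call without TA replicate 1 (adjusted p = 0.0512) or 2 (0.0509). The call of CSLC12 for IXB was lost without methanol replicate 1 or any 1 of the 4 IXB arrays (0.0523 to 0.0875), and that of ATCSLC08 without methanol replicate 2 or 3 or any 1 of the 4 TA arrays (0.0681 to 0.132). An ordinary linear model on all arrays lost these calls too, with an adjusted p of 0.144 for CSLC04 with IXB, 0.113 and 0.132 for CSLC12 with TA and IXB, and 0.144 for ATCSLC08 with TA, and an intensity trend in the prior lost that of ATCSLC08 (0.0774). With the low-oxygen covariate, which by itself separates TA from methanol, CSLC04 kept its call for TA (1.23 log2, adjusted p = 0.00793). CSLC12 (0.70, adjusted p = 0.616) and ATCSLC08 (-0.01, adjusted p = 0.998) lost theirs.

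**Figure D4:**
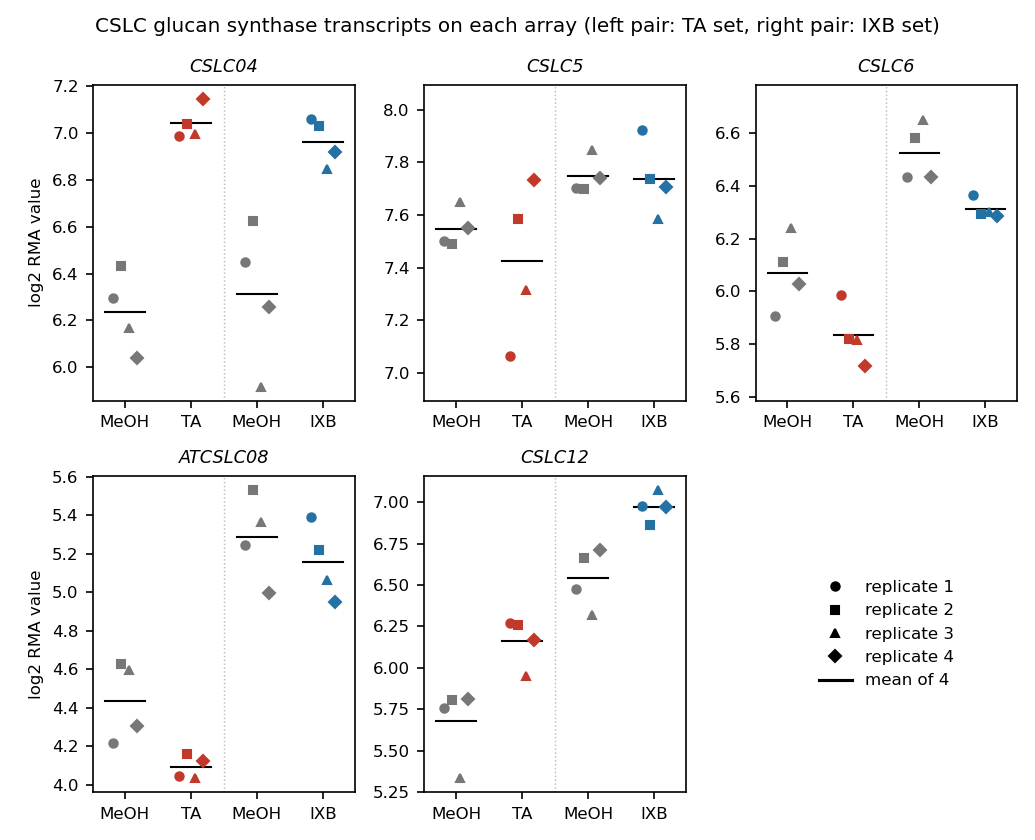
Log2 RMA value of the 5 measured CSLC genes on each array, 1 panel per gene with its own vertical axis, laid out as in the plot of the XTH members. CSLC04 and CSLC12 lie above methanol with both compounds, and ATCSLC08 lies below methanol with TA. CSLC6 lies below methanol with IXB and overlaps with it for TA, and CSLC5 overlaps with methanol in both sets.

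The genes whose profile over the 12 arrays was nearest to those of XTH18 and XTH19 were found by the root mean square difference of the distances from the methanol mean, over all other genes with a single-gene probe set. For XTH18 these were AT2G47550 (0.28 log2), AT1G33760 (0.36) and AT2G32190 (0.49). AT2G47550 rose by 3.33 with TA and 2.07 with IXB, AT1G33760 by 3.02 and 2.22, and AT2G32190 by 3.41 and 1.67. For XTH19 they were AT4G36500 (0.16 log2), AT1G66180 (0.18) and AT1G17620 (0.20), which rose by 1.73, 1.71 and 1.54 with TA and by 1.14, 1.21 and 1.14 with IXB. The difference between TA and IXB ran from 0.40 for AT1G17620 to 1.74 for AT2G32190. Being near in this sense was the basis of their choice, so these values are a description with no test.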

How the data were processed

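RNA from 12 samples (4 each of methanol, TA and IXB) was hybridised to Affymetrix ATH1 arrays. The authors deposited log2 signals from RMA, per the submitters' processing notes; its version is not given in the sources used here. The 16 columns form a TA set and an IXB set with the same methanol scans, per the labels. Of 22810 probe sets, 64 controls were left out. Of 14016 listed probe sets, 13513 had 1 gene.

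For each comparison lmFit and eBayes (two-sided) of limma 3.58.1 were run in R 4.3.3, with Benjamini-Hochberg adjustment over 22746 probe sets, and the code was tested on simulated data. Figures used matplotlib 3.10.9. The number of arrays limits the precision.

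The members, lists and tests were chosen with earlier results of these data known. Named were all members and measured XTH loci, the xyloglucan genes that passed, and 3 nearest genes each for XTH18 and XTH19.

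Deviations of same-numbered arrays from their group means correlated at 0.147, 0.101, 0.132 and 0.144 for methanol and IXB, all above 0.1 but low. Of the methanol arrays, only 2 correlated best with the IXB array of their own number, and 2 with the TA array of theirs. These values do not settle whether the numbers pair the arrays, and the replicate block was run as an alternative only. The values printed come from the fit without a block; the block changed no call of an XTH gene, CSLC04, CSLC12 or ATCSLC08. For methanol and TA the correlations of same-numbered arrays were 0.032, -0.063, 0.295 and 0.078. The alternatives are a replicate block, other priors, filters, normalizations, thresholds and sets of arrays, the covariate, and leaving out each array. The mapping between the sets was chosen after seeing the data.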

Additional observations from a re-analysis of the deposited data

Results flagged for a closer look

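The value of XTH19 on methanol replicate 1 stood apart from the other 3 methanol arrays in both sets, at 8.45 against 8.92 to 9.01 in the TA set and at 8.74 against 9.21 to 9.30 in the IXB set. These are 2 versions of 1 array. Without that array the log2 difference of XTH19 was 1.59 with TA, 1.12 with IXB and 0.47 between the compounds, and it was called in all 3. XTH29 on methanol replicate 4 of the IXB set was at 2.96, with the others at 2.78 to 2.81, and the same array of the TA set was not flagged. CSLC12 on methanol replicate 3 of the TA set was at 5.34, with the others at 5.76 to 5.81. Each was marked because its gap to the nearest array took up more of its group's range than Dixon's critical value allows (0.843, 0.837, 0.845 and 0.891 of the range, in the order given). Of 52 groups of 4 checked, these 4 were marked, and chance marks about 5% of groups.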

How the results depend on the processing

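The calls of XTH18 in all 3 comparisons and of XTH19 against methanol stayed under every alternative run: the log2 difference of XTH18 ran from 3.42 to 3.59 for TA, 2.40 to 2.54 for IXB and 0.94 to 1.16 for TA against IXB, and that of XTH19 from 1.59 to 1.85 and 1.12 to 1.31. With the replicate block the members called stayed at 4, 3 and 2 (adjusted p for IXB of 1.19e-06 for XTH18 and 0.00827 for XTH16), and over all probe sets the block gave 625 higher and 189 lower for IXB against 501 and 184 without it. For TA the members called fell to 2 without dim probe sets, a filter that removes the dim members from the fit, and to 2 with the low-oxygen covariate. For TA against IXB the count was 1 with an intensity trend, 1 with an ordinary linear model, 1 with the covariate, 1 at an adjusted p under 0.01, and 1 to 2 when each array was left out in turn; the cause was not tested.

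Over all probe sets, the higher and lower calls moved by over 1.5 times in these cases. An ordinary linear model gave 765 and 477 for TA (1230 and 1069 otherwise), 164 and 48 for IXB, and 358 and 260 for TA against IXB (618 and 467 otherwise). The covariate gave 152 and 2 for TA, 763 and 301 for IXB, and 292 and 86 for TA against IXB. An adjusted p under 0.01 gave 810 and 397, 226 and 16, and 220 and 67. Without dim probe sets IXB had 307 lower, and the 8 treated columns alone gave 257 lower for TA against IXB. Leaving out each array gave 637 to 1137 lower for TA, 319 to 487 higher and 54 to 152 lower for IXB, and 329 to 677 higher and 150 to 535 lower for TA against IXB.

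Differences that changed sign were uncalled in every case. With the covariate XTH29 went to -0.393 for TA, and for TA against IXB XTH21 went to 0.030, XTH26 to -0.073, XTH20 to 0.108, XTH29 to -0.023 and ATCSLC08 to 0.027. XTH29 for IXB went to -0.001 with median centring and -0.011 with quantile normalization, and XTH26 for TA against IXB to -0.001 with median centring and -0.008 with the mapped columns. Leaving out each array gave -0.084 to 0.035 for XTH21 and -0.027 to 0.101 for XTH29 with TA, and -0.026 to 0.048 for XTH29 with IXB. For TA against IXB it gave -0.029 to 0.138 for XTH16, -0.084 to 0.035 for XTH21, -0.081 to 0.097 for XTH26, -0.043 to 0.206 for XTH32, -0.137 to 0.002 for XTH20, -0.014 to 0.049 for EXGT-A3 and -0.033 to 0.094 for XTH29. Signal near the floor limits what can be read from the 5 dim members.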
